A study of Homo sapiens with 2 samples.

Results

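The mitochondrial ribosomal protein genes were taken as all rows whose symbol starts with MRPL or MRPS followed by a digit, without hyphenated names and without pseudogene names that end in P and digits. This gave 78 genes of the 14914 listed features, 49 named for the large subunit (MRPL) and 29 named for the small subunit (MRPS), and these 78 are also every protein-coding gene that GENCODE release 29 names in this way. In HUH7, a human liver cancer cell line long in culture, RNA was sequenced from 1 library recovered by immunoprecipitation of CSTF2 (IP) and from 1 Input library, and the series asks which RNAs CSTF2 binds. Both libraries come from the same line with no other treatment given in the labels, the labels name no clone or passage, and a mock immunoprecipitation was not analysed here. CSTF2 (CstF-64) contacts the pre-mRNA as a part of CstF, a complex that helps to place the 3′ end of most mRNAs. Since each group is a single library, no replicate error can be given and no test between the groups was run, so every difference describes these 2 libraries only.

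The mitochondrial ribosome translates the few proteins that the mitochondrial genome encodes, all of them core parts of the respiratory chain or of ATP synthase. Its rRNAs come from mitochondrial DNA, whereas its proteins are encoded in the nucleus, made in the cytosol and imported. Some of these proteins descend from bacterial ribosomal proteins and others were added during the evolution of mitochondria. The symbols do not follow the subunits strictly: MRPS18A and MRPS30 sit in the large subunit of the human particle, and MRPS36 is now known mainly as a part of the 2-oxoglutarate dehydrogenase complex.

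The values are RPKM, reads scaled to the length of a gene's exons and to library depth. Assigned reads came to 3220045 for the IP and 9517885 for the Input. The members held 6 to 248 reads (IP) and 24 to 1045 reads (Input). Where a pair of values is given without labels, the IP comes first. Differences are given as log2((IP + 1)/(Input + 1)) of RPKM, a scale that understates the change of low genes, and as RPKM ratios with a 95% interval computed from the read numbers, which covers counting error only. All 78 members reached a mean of 1 RPKM, the filter that 9880 features passed. The median log2 ratio of those 9880 features was 0.17, a ratio of 1.13 on this scale with the pseudocount. The mRNA of CSTF2 itself stood at 487 RPKM (IP) and 6.97 RPKM (Input). Of 10 hepatocyte and liver cancer markers, all were detected, with ALB at 200.3 RPKM (IP) and 254 RPKM (Input). Of 10 markers of blood, stromal and endothelial cells, 4 were listed, with summed levels of 10.6 RPKM in each library. The sums hide opposite differences, with CD68 at 3.12 RPKM (IP) and 0.576 RPKM (Input), a ratio of 5.42 (2.57 to 12.01), and LUM at a ratio of 0.711 (0.511 to 0.972). The markers PTPRC, COL1A1, PECAM1, VWF, CDH5 and HBB have no row of their own.

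CSTF2 acts at the 3′ end, so stretches near the annotated 3′ ends of members with the most extreme or highest values are shown first. Each is 30 bases from the last 40 bases of the gene's principal transcript in GENCODE release 29 (GRCh38), 5′ to 3′. That transcript can end well inside the gene's full span, as for MRPL33 and MRPS18C, and a stretch can stop a few bases short of its end. Capitals mark the AATAAA nearest the end or, where there is none, the ATTAAA.
MRPL30, the highest log2 ratio, chr2:99197590-99197619, plus strand: tgtgaaAATAAAagcagcctctgctaattt
MRPS36, the highest log2 ratio of the small subunit, with neither signal in its last 40 bases, chr5:69230100-69230129, plus strand: tacgtatattgtgaagtaaagcctcacaaa
MRPS25, the next highest of the small subunit, chr3:15048518-15048547, minus strand: tctatcaatcAATAAAtgttgaacattttt
MRPL33, the lowest log2 ratio, chr2:27779709-27779738, plus strand: gcccttAATAAAaaatattaaaatagcctg
MRPL17, the next lowest, chr11:6680782-6680811, minus strand: caaaacatttatgaAATAAAgctacaactc
MRPL41, also low, chr9:137552526-137552555, plus strand: ctcatttctATTAAAcgcctttgccagcta
MRPS18C, the lowest of the small subunit, chr4:83462267-83462296, plus strand: tttggaAATAAAagcatctgatgtttgaaa
MRPS34, the most abundant, chr16:1771890-1771919, minus strand: aaagggAATAAAgagaaaagaagtacccag
The common signal AATAAA stands in genes at both ends of the range, as in MRPL30 and MRPL33, and the MRPL33 stretch also holds an ATTAAA, left in lower case. In the last 40 bases of the transcript, 52 of 78 members (66.7%) had AATAAA, 10 had ATTAAA alone and 16 had neither, against 62.6%, 14.1% and 23.2% of 7593 protein-coding genes. The median log2 ratio of the members was -0.30 with AATAAA, -0.40 with ATTAAA and -0.59 with neither, while over all protein-coding genes the corresponding medians were 0.16, 0.13 and 0.14. The GU-rich pentamer TGTGT, searched on the sense strand of the whole transcript, occurred in 57 members (73.1%) and in 90.4% of protein-coding genes, which have longer transcripts. These are matches of letters in annotated transcripts. The sequence downstream of the cleavage sites, where CSTF2 binds the pre-mRNA, was not analysed here.

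Most mitochondrial ribosomal protein mRNAs had a lower level in the IP than in the Input. In the large subunit 41 of 49 and in the small subunit 18 of 29 lay below a log2 ratio of 0, and 46 and 22 lay below the median of all features. Below 0 were 3916 of 9880 features in all and 3043 of 7626 protein-coding features. The median log2 ratio was -0.37 in the large subunit and -0.12 in the small subunit, which is -0.54 and -0.29 relative to all features. At least 2-fold lower were 6 large subunit members (12.2%) and 3 small subunit members (10.3%), where 6.83% of all features were. A single member, MRPL30, was at least 2-fold higher (2.04% of the large subunit, none of the small), where 9.88% of all features were.

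The counting intervals give the same picture with less regard to fold. The interval of the RPKM ratio lay below 1 for 31 of 78 members (39.7%), where it did for 20.1% of all features. It lay above 1 for 4 members (5.13%), namely MRPL30, MRPL28, MRPS25 and MRPS9, where it did for 36.1% of all features. For the remaining 43 members the interval held 1, so a difference was not detectable at this depth. Among protein-coding features alone, 5.19% lay at least 2-fold below and 5.81% at least 2-fold above equal levels.

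The members' reads together made up 0.128% of the IP (95% Wilson interval 0.1246 to 0.132) and 0.164% of the Input (0.161 to 0.166). The mRNAs encoded in mitochondrial DNA took 35.7% of the IP reads and 10.9% of the Input reads. The mitochondrial rRNAs went the other way, with 821340 of 3220045 IP reads and 4797608 of 9517885 Input reads. The share was therefore also taken over nuclear protein-coding genes alone, which held 1072517 IP reads and 2752413 Input reads. On that base the large subunit went from 0.314% of the Input (0.308 to 0.321) to 0.207% of the IP (0.198 to 0.215), 1.52 times less. The small subunit went from 0.252% (0.246 to 0.258) to 0.179% (0.171 to 0.187), 1.41 times less. On the read scale the subunits thus stood lower by similar factors.

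The members span a wide range of levels, from 1.01 RPKM in the IP for MRPL46 to 100.1 RPKM in the Input for MRPS34. The median level of the large subunit was 4.21 RPKM (IP) and 5.59 RPKM (Input). That of the small subunit was 4.53 RPKM and 4.96 RPKM. MRPL51 and MRPS34, proteins added in mitochondria, were the most abundant of their subunits in both libraries. The order of levels was largely shared by the libraries, with a Spearman rho of 0.882 over the 49 large subunit genes and 0.873 over the 29 small subunit genes, a description across genes that share both libraries and their gene lengths.

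**Figure D1:**
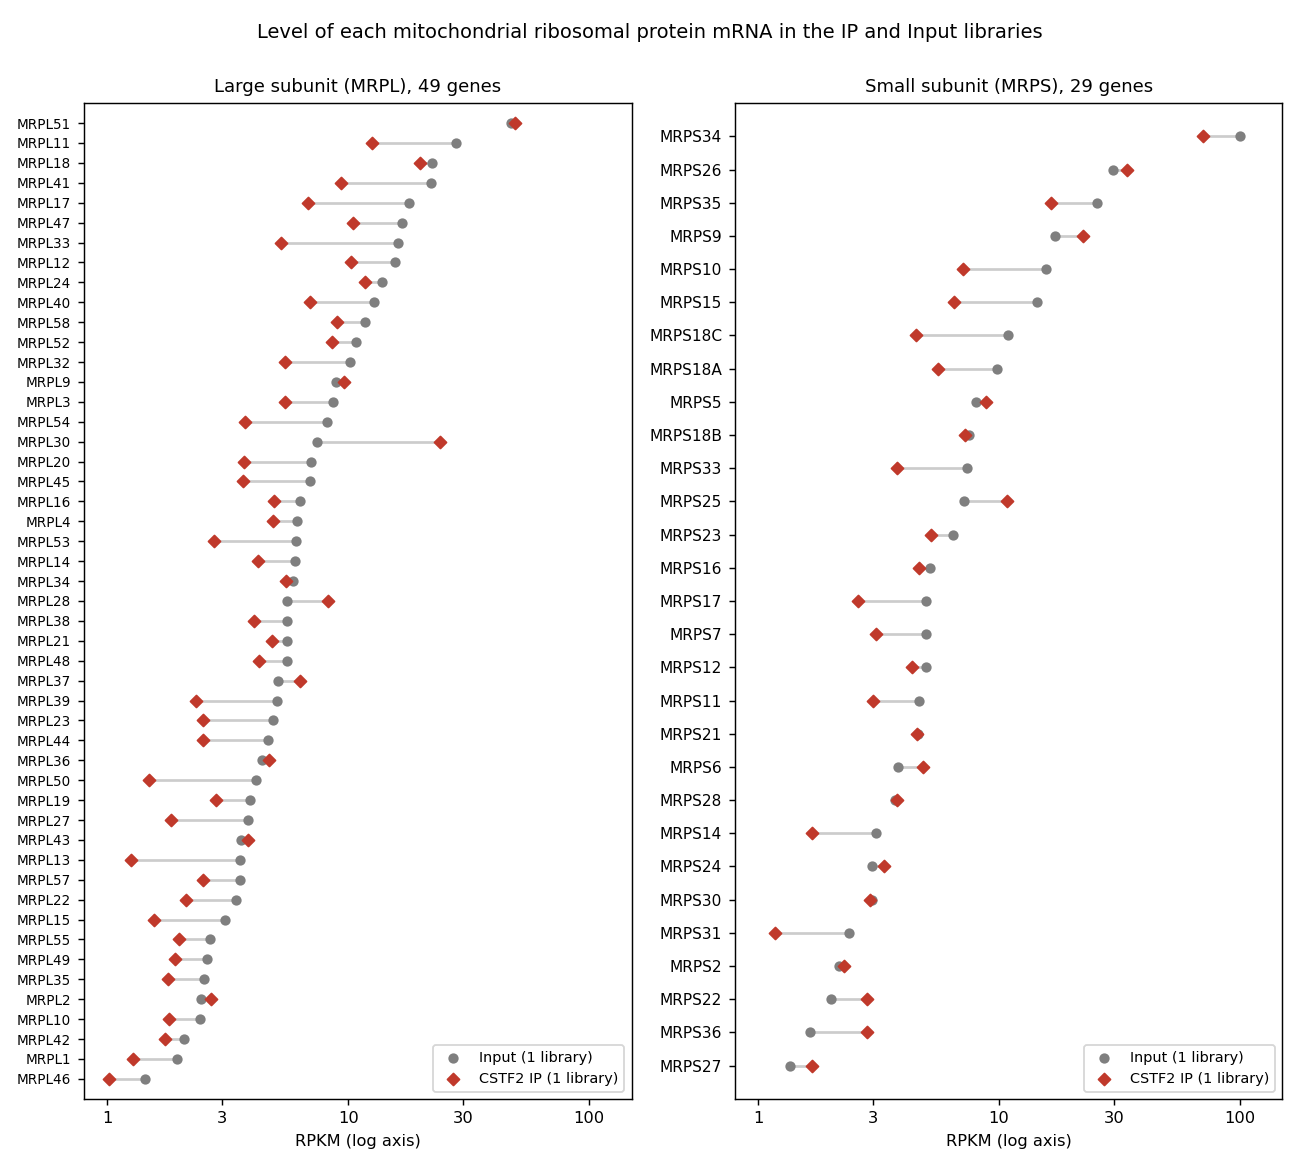
Level of each member in RPKM on a log axis, with the Input as grey circles and the CSTF2 IP as red diamonds, 1 library each, sorted by the Input level within each subunit. Most red points lie left of the grey ones, MRPL30 (24.1 against 7.40 RPKM) is the clearest exception, and MRPL51 and MRPS34 head their subunits.

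Of the large subunit proteins, the 4 of the lateral stalks and the GTPase-associated centre, where translation factors dock and deacylated tRNA leaves, all had log2 ratios below 0, with a median of -0.47. MRPL11, the protein on the GTPase-associated rRNA (chr11:66435075-66466738), measured 12.6 RPKM (IP) and 28.1 RPKM (Input), 2.23-fold lower (1.81 to 2.77). MRPL12, the stalk protein that also binds the mitochondrial RNA polymerase, had 10.3 RPKM and 15.6 RPKM, 1.52-fold lower (1.04 to 2.28). MRPL10, the base of the stalk, had 1.80 and 2.43 RPKM and MRPL1, of the stalk at the tRNA exit, 1.28 and 1.95 RPKM, both with intervals that hold 1. MRPL11 is thus the only one of these 4 past 2-fold.

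Around the polypeptide exit tunnel, all 6 members were below 0 on the log2 scale, with a median of -0.69. MRPL17 (chr11:6680782-6683401) measured 6.82 RPKM (IP) and 17.9 RPKM (Input), 2.62-fold lower (1.95 to 3.59). MRPL45, which holds the ribosome to the inner membrane, had 3.64 RPKM and 6.96 RPKM, 1.91-fold lower (1.18 to 3.25). MRPL23, at the rim of the tunnel, was 1.95-fold lower (1.25 to 3.14). MRPL24 was the member of this group closest to equal levels, with 11.7 and 13.8 RPKM and an interval of the ratio of 0.635 to 1.13. Of the 6, 5 had an interval below 1.

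The core around the peptidyl transferase centre had a median log2 ratio of -0.30 over 5 genes, none past 2-fold. MRPL3, a protein of the core that is mutated in a form of cardiomyopathy, measured 5.49 RPKM (IP) and 8.63 RPKM (Input), 1.57-fold lower (1.15 to 2.19). MRPL27, whose bacterial counterpart reaches into the catalytic centre, was 2.09-fold lower by ratio (1.26 to 3.65) on 18 and 111 reads, less than 2-fold on the pseudocount scale. MRPL2 had 2.69 and 2.44 RPKM, a ratio of 1.10 (0.643 to 1.83). In the central protuberance, which faces the small subunit, MRPL18, MRPL38, MRPL40, MRPL46 and MRPL48 had a median of -0.32, and only MRPL40, at 1.84-fold lower (1.33 to 2.60), had an interval below 1.

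Among the other large subunit genes, MRPL33 had the lowest log2 ratio of all members, -1.45. It lies on chr2:27771717-27988087 and measured 5.25 RPKM (IP) and 16.04 RPKM (Input), 3.06-fold lower (2.03 to 4.78). It encodes a counterpart of a small bacterial protein and has the shortest coding sequence of the members, 195 bp. MRPL41 (chr9:137551199-137552555), a protein added in mitochondria, had 9.35 and 22.1 RPKM, 2.36-fold lower (1.67 to 3.41). MRPL50 had 1.49 and 4.13 RPKM, 2.77-fold lower (1.64 to 4.99), and MRPL13 1.25 and 3.57 RPKM, 2.85-fold lower (1.72 to 5.02), both on fewer than 20 IP reads. Next to these, MRPL54, MRPL53 and MRPL39 were about as low by ratio, 2.20-fold, 2.20-fold and 2.18-fold, but rested on 12, 12 and 9 IP reads. MRPL32, whose maturation depends on the mitochondrial m-AAA protease, was 1.86-fold lower (1.42 to 2.48). MRPL58, which releases stalled peptides, had 8.97 and 11.8 RPKM with an interval of the ratio of 0.5002 to 1.13.

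At the upper end, MRPL30 stood alone. It lies on chr2:99181079-99197626 and encodes a counterpart of a bacterial large subunit protein. Its IP level was 24.1 RPKM from 225 reads and its Input level 7.40 RPKM from 204 reads, a ratio of 3.26 (2.69 to 3.96). The next large subunit gene, MRPL28, had 8.27 and 5.59 RPKM, 1.48-fold higher (1.08 to 2.01). Below it came MRPL37 at 1.24-fold (0.879 to 1.73), MRPL2, MRPL9 at 1.07-fold (0.777 to 1.47) and MRPL36 at 1.07-fold (0.617 to 1.79), which do not differ from one another beyond their intervals. MRPL51, at 49.3 RPKM (IP) and 47.3 RPKM (Input), had a ratio of 1.04 (0.897 to 1.21), a narrow interval because 246 and 698 reads stood behind it. Exons of MRPL30 share 564 bp with AC079447.1 and 380 bp with AC092587.1 on the same strand. Neither of these has a row under this name, other names were not searched, and the part of the overlap in the value was not tested.

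In the small subunit, the head proteins went both ways. MRPS10 (chr6:42206801-42217865) measured 7.06 RPKM (IP) and 15.6 RPKM (Input), 2.21-fold lower (1.63 to 3.06). MRPS7 was 1.61-fold lower (1.10 to 2.42) and MRPS14 1.84-fold lower (1.03 to 3.52). MRPS9 (chr2:105037983-105099960) had 22.2 and 17.1 RPKM, 1.30-fold higher (1.05 to 1.59), and MRPS24 had 3.33 and 2.98 RPKM, a ratio of 1.12 (0.697 to 1.75). MRPS31 had 1.17 and 2.37 RPKM on 8 and 48 reads, with an interval of the ratio of 0.201 to 1.05, and pseudogene copies of it are listed, so its reads may be shared with them.

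On the platform, MRPS18C (chr4:83455932-83469735) had the lowest log2 ratio of the small subunit, -1.10, at 4.53 RPKM (IP) and 10.9 RPKM (Input), 2.40-fold lower (1.87 to 3.12). MRPS15 (chr1:36455718-36464437) had 6.497 and 14.4 RPKM, 2.22-fold lower (1.69 to 2.95). MRPS11 was 1.57-fold lower (1.16 to 2.14), while MRPS21 at a ratio of 0.985 (0.593 to 1.58) and MRPS6 at 1.27 (0.939 to 1.70) had intervals that hold 1. The 3 genes named MRPS18 encode related proteins that occupy different places in the particle, and MRPS18C is counted here as the counterpart of the bacterial protein. MRPS18A was 1.77-fold lower (1.12 to 2.89) and MRPS18B had a ratio of 0.963 (0.669 to 1.36), so within this family the interval of MRPS18B did not overlap that of MRPS18C.

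In the body, MRPS12, the decoding centre protein, measured 4.35 RPKM (IP) and 4.95 RPKM (Input), a ratio of 0.878 (0.564 to 1.33). MRPS5 had 8.78 and 7.99 RPKM, a ratio of 1.10 (0.925 to 1.30), and MRPS17 was 1.92-fold lower (1.15 to 3.36). Among the proteins added in mitochondria, MRPS34 (chr16:1771890-1773155), which is mutated in a form of Leigh syndrome, measured 70.2 RPKM (IP) and 100.1 RPKM (Input), 1.43-fold lower (1.24 to 1.64). MRPS33 was 1.96-fold lower (1.497 to 2.59) and MRPS35, with 16.5 and 25.4 RPKM, 1.54-fold lower (1.24 to 1.92). MRPS26 had 33.9 and 29.8 RPKM, a ratio of 1.14 (0.915 to 1.40). MRPS25 (chr3:15042460-15065335) had 10.7 and 7.14 RPKM, 1.502-fold higher (1.25 to 1.80). MRPS22, mutated in mitochondrial disease of early life, was at 1.41-fold (0.980 to 1.99), MRPS27, an RNA-binding pentatricopeptide repeat protein, at 1.23-fold (0.806 to 1.85) and MRPS36, on 14 and 24 reads, at 1.72-fold (0.825 to 3.47).

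**Figure D2:**
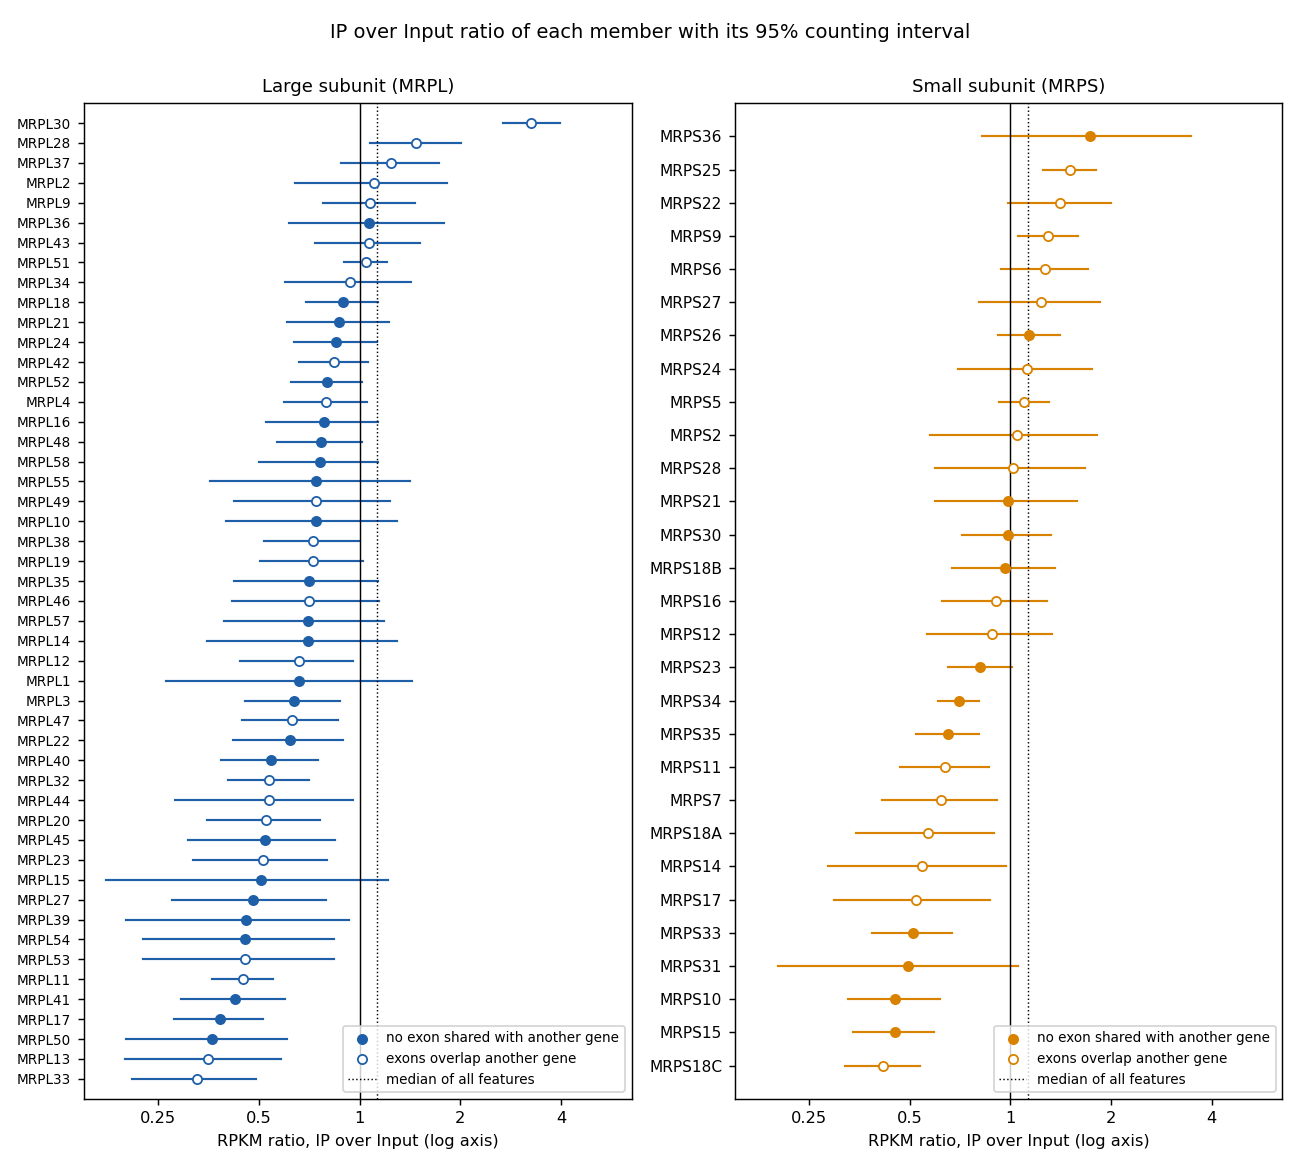
RPKM ratio of IP over Input for each member on a log axis, with its 95% counting interval, large subunit in blue and small subunit in orange. The solid line is a ratio of 1. The dotted line is the median of all features (1.13), taken with the pseudocount, whereas the points are ratios without it. Open circles mark genes whose exons overlap another annotated gene. The 4 members with an interval above 1 all have open circles.

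Overlap with other genes divided the members. Exons of 41 of the 78 overlap those of another GENCODE gene, in 25 cases only on the opposite strand, and the library protocol does not state that strand was kept. The 37 members without such an overlap had a median log2 ratio of -0.38, the same in both subunits (-0.38 over 25 MRPL and -0.38 over 12 MRPS), and 34 of them were below 0. Of these 37, 5 passed 2-fold downward and none upward, 15 had an interval below 1 and none had an interval above 1. The 41 members with an overlap had a median of -0.28, with -0.33 over 24 MRPL and 0.02 over 17 MRPS. So the gap between the subunit medians, -0.25 for large minus small, was -0.0048 without the overlapping genes. It was 0.11 with a filter of 5 RPKM, which kept 26 MRPL and 13 MRPS, so no order of the subunits is given.

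Of the 9 members at least 2-fold lower, MRPL33, MRPL11, MRPL13 and MRPS18C are among the 41. MRPS18C shares 1956 bp with ABRAXAS1 on the other strand and MRPL33 shares 324 bp with BABAM2 on its own strand. Neither partner has a row under these GENCODE release 29 names. Of the 14914 features, 12660 matched a symbol of that release, and partners were not searched for under other names. For 26 of the 41, an overlapping gene has a row under its name in that release, and its value can be set beside the member's. Of these 30 partners, 20 lay on the same side of a log2 ratio of 0 as the member and 10 on the other side. Over all features, 5964 of 9880 lay above 0. The number that would share a side without any relation was not worked out, so these counts are not read as a link. NR2C2, a nuclear receptor gene on the other strand of MRPS25, had a ratio of 1.95 and shares 1197 bp of exon with it. TMEM8A, on the same strand as MRPL28 with 223 bp shared, had 58 and 164 reads and a ratio of 1.05. The length recovered for MRPL28 was 2404 bp, against 3042 bp in GENCODE release 29. Whether the deposited counts include the bases shared with TMEM8A is therefore not known. UTAT33, on the other strand of MRPS9 with 170 bp shared, had 70 and 170 reads and a ratio of 1.22. URGCP-MRPS24, a readthrough that shares 606 bp with MRPS24, had 33 and 83 reads where MRPS24 had 28 and 74, so their values are not independent. Partners on the other side included PELI3, which shares 119 bp with MRPL11 and had a ratio of 1.58 (0.803 to 2.99), MTBP, which shares 3 bp with MRPL13 and had 1.83 (0.960 to 3.42), and FAU, which shares 282 bp with MRPL49 and had 1.36 (1.21 to 1.53). What part these overlaps have in the members' values was not tested.

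The rule did not use gene length, and the members are short genes. Their median coding length was 585 bp, from 195 bp to 1317 bp, against 1350 bp over 7593 protein-coding genes past the filter. Across those protein-coding genes the log2 ratio went with coding length, with a Spearman rho of 0.569, a description across genes within 1 pair of libraries. The rho was 0.398 with transcript length, 0.397 with exon number and 0.274 with GC content, and -0.0329 with the density of TGTGT. Across the 78 members themselves, which cover a narrow range, the rho with coding length was 0.138.

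Set beside other genes of like coding length, the members' medians were close to the rest among the shortest and the middle lengths, and lower in between. In the shortest quintile of coding length, up to 693 bp, 1469 other protein-coding genes had a median log2 ratio of -0.45, and 20.1% of them were at least 2-fold lower. The 50 members in that quintile had a median of -0.37, with -0.41 over 32 MRPL and -0.20 over 18 MRPS, and 8 of the 50 were at least 2-fold lower. In the next quintile, up to 1125 bp, 1498 other genes had a median of -0.06, whereas the 21 members there had -0.36, and 15 of them were below the other genes' median. The remaining 7 members, in the middle quintile, had a median of 0.12 beside 0.15 for 1511 other genes, and no member fell into the upper quintiles.

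Taken relative to the median of other genes in the same quintile of coding length, the large subunit was -0.22 (28 of 49 below) and the small subunit 0.01 (14 of 29 below). Without regard to length, the same medians were -0.52 and -0.27 relative to all protein-coding genes. The extremes on this relative scale were MRPL30 at 2.03, MRPS36 at 0.99 and MRPS25 at 0.98 above, and MRPL33 at -0.997, MRPS15 at -0.98 and MRPL17 at -0.82 below. With deciles in place of quintiles the subunits were at -0.16 (32 of 49 below) and 0.04 (12 of 29 below). With quintiles of exon-union length, a weaker correlate, they were at -0.34 (38 of 49 below) and -0.14 (17 of 29 below). Coding length moves with other properties of mRNAs, and its part in the values was not tested.

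**Figure D3:**
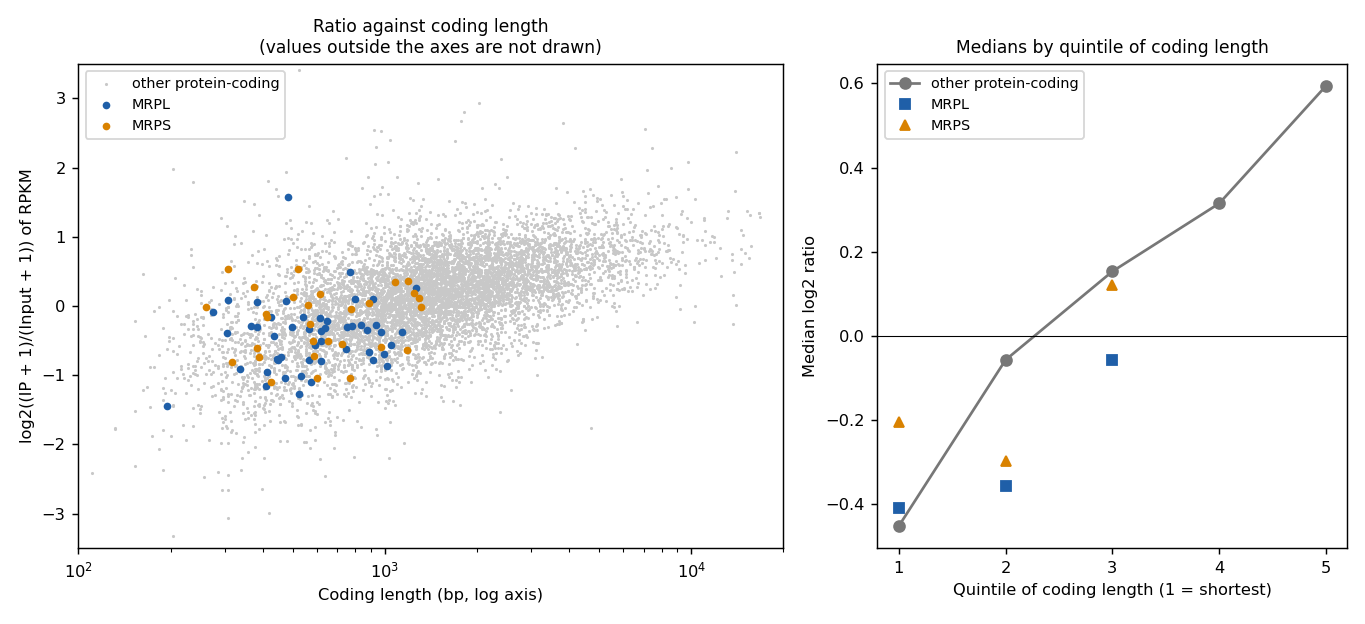
Left, log2((IP + 1)/(Input + 1)) of RPKM against coding length in bp (log axis) for protein-coding genes past the filter, with MRPL in blue and MRPS in orange. Right, the median log2 ratio by quintile of coding length for the other protein-coding genes (grey, from -0.45 to 0.59) and for the members, which fall in the lowest 3 quintiles.

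By bacterial counterpart, the median log2 ratio was -0.36 for the 30 MRPL with a bacterial counterpart and -0.38 for the other 19. In the small subunit the medians were -0.14 over 16 genes with a counterpart and -0.05 over the other 13, among which MRPS18A and MRPS18B are counted although they are related to MRPS18C. All 3 MRPS genes at least 2-fold lower, MRPS18C, MRPS10 and MRPS15, have bacterial counterparts, as do 4 of the 6 MRPL genes, MRPL33, MRPL17, MRPL11 and MRPL13. Genes with a counterpart make up 16 of all 29 MRPS and 30 of all 49 MRPL, so these few genes do not set the classes apart.

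Other nuclear genes of the mitochondrial translation system were taken in 3 lists, which do not cover the whole system. Their medians were closer to that of all features, though the assembly list, at -0.09, lay near the small subunit's -0.12. The 5 listed mitoribosome subunits with other symbols had a median log2 ratio of -0.04 and none was past 2-fold. GADD45GIP1, a large subunit protein, measured 56.6 RPKM (IP) and 51.1 RPKM (Input), a ratio of 1.11 (0.973 to 1.26), and DAP3, a GTP-binding small subunit protein, had a ratio of 1.10 (0.861 to 1.39). AURKAIP1 had a ratio of 0.914 (0.744 to 1.12), and CHCHD1 was 1.54-fold lower (1.07 to 2.28).

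Of 14 translation factors and associated proteins past the filter, 1 passed 2-fold downward and none upward, and the median log2 ratio was -0.02. The lower gene was MTIF3, initiation factor 3, at 2.52 RPKM (IP) and 10.9 RPKM (Input), 4.32-fold lower (2.46 to 8.28). SLIRP, which binds mitochondrial mRNAs together with LRPPRC, was 2.08-fold lower by ratio (1.62 to 2.72), whereas LRPPRC was 1.61-fold higher (1.28 to 2.02). OXA1L, which inserts new proteins into the inner membrane beside MRPL45, was 2.14-fold higher by ratio (1.51 to 3.01). Partners in this system thus lay on different sides of 1.

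Of 16 assembly and rRNA modification factors past the filter, MTERF3 alone, on 2 and 38 reads, passed 2-fold downward and none upward, and the median log2 ratio was -0.09. MALSU1, which binds the immature large subunit, was 2.20-fold lower by ratio (1.47 to 3.40). DHX30, an RNA helicase, was 2.30-fold higher by ratio (1.78 to 2.96) and METTL17, a methyltransferase-like protein of the small subunit's assembly, 2.77-fold higher (1.63 to 4.71), although with the pseudocount both stay under 2-fold. The rRNAs of the particle, MT-RNR1 and MT-RNR2, were 1.52-fold and 2.08-fold lower in the IP, farther from the median of all features than the members' medians.

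The members lay between these factors and the lists that encode the cytosolic ribosome and the respiratory chain. Over 80 cytosolic ribosomal protein genes the median log2 ratio was -0.92, and 42.5% were at least 2-fold lower, from RPS12 (6.32-fold, 5.40 to 7.44) and RPS3A at the low end to RPL3 and FAU (1.36-fold higher, 1.21 to 1.53) at the high end. Over 73 nuclear respiratory chain genes the median was -0.72, and 34.2% were at least 2-fold lower, from COX6B1 (6.71-fold, 3.77 to 13.2) and COX7C at the low end to NDUFV1 (1.85-fold higher, 1.58 to 2.17) and COX7A1 (8 IP reads and 0 Input reads) at the high end. The members' own medians of -0.37 and -0.12, with 12.2% and 10.3% at least 2-fold lower, are closer to 0. These differences between lists have no test, since genes are not replicates of the libraries. The lists were also not set at like coding length, with which the log2 ratio goes across protein-coding genes.

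**Figure D4:**
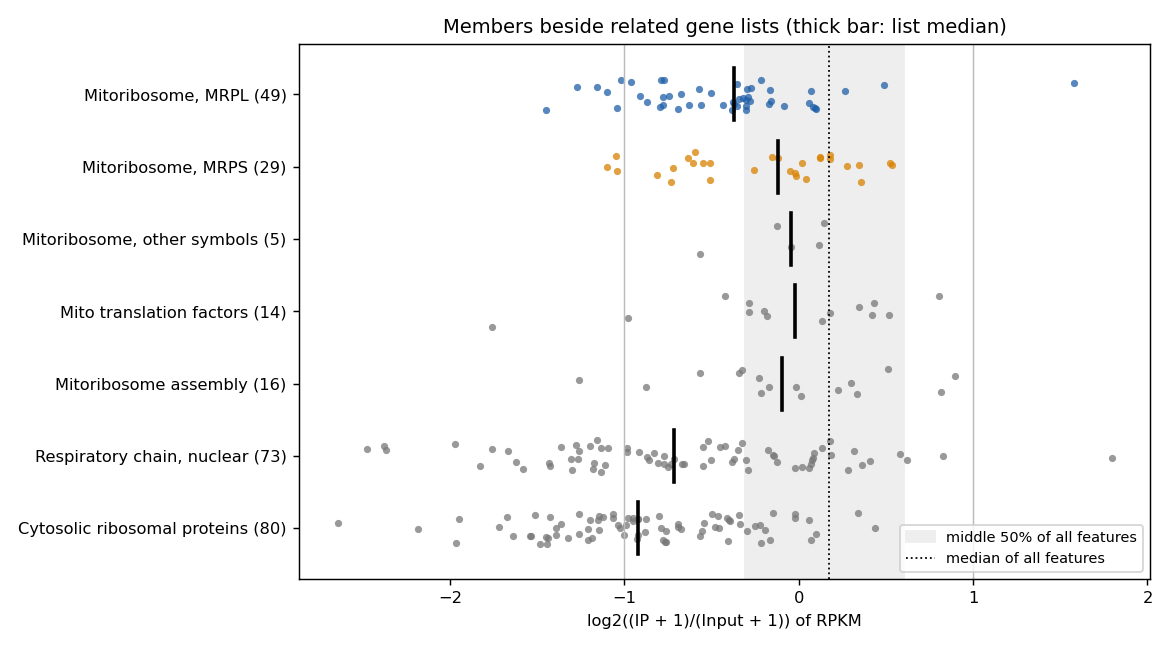
log2((IP + 1)/(Input + 1)) of RPKM for every gene past the filter in each list, with the number of genes in brackets, the list median as a thick bar, the median of all features (0.17) dotted and the middle 50% of all features in grey. The mitoribosome lists lie between the factors of mitochondrial translation (-0.02) and the cytosolic ribosomal proteins (-0.92). The lists are not matched for coding length.

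Rescaling moves the counts of the large subunit but not those of the small one. With the ratios centred on the median of all features, 9 MRPL and 3 MRPS passed 2-fold downward and 1 MRPL upward. Over all features, centring turned 976 higher and 675 lower into 684 higher and 944 lower.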

How the data were processed

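RIP-seq libraries of HUH7 cells, 1 IP and 1 Input, were compared. Per the file headers, the authors deposited RPKM values per library together with the log2 fold change between the libraries. FastQC 0.12.0 and hg38 are named in the submitters' processing notes, and for the aligner, the counter and the annotation the sources used here give no name. The deposited log2 fold change served only to recover reads: solved together with the RPKM values, under a prior of 0.125 reads per library scaled to depth, it gave whole reads (tolerance 0.01) for 14913 of 14914 features. Recovery was run on data simulated under the same prior, which cannot test the prior itself. For 77 of 78 members the length used equalled the exon-union length in GENCODE release 29 (GRCh38). That length was tried first and such lengths also set the depths, so the match is not independent. The same release gave coordinates, biotypes, overlaps and transcripts. The exception is MRPL28. Without replicates no p-value is given. Ratios have exact conditional (Clopper-Pearson) 95% intervals and shares have Wilson intervals. Both cover counting error only and treat PCR reads as independent molecules, which they are not.

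The pseudocount was 1 RPKM, the filter a mean of 1 RPKM and the threshold 2-fold. The transcript of a gene was its complete coding transcript of best APPRIS rank, then CCDS membership, support level and length. Named were the 6 highest and 6 lowest members of each subunit, every member past 2-fold, the most abundant, and the extremes of each related list. Others were named for their role, or after their values were seen (MRPL39, MRPL53, MRPL54, MRPS18B, MRPS26 and MRPS35). The members, lists, role groups and rules were chosen with earlier results of these data known. Python 3.11.15, numpy 2.4.6, scipy 1.17.1, pandas 2.3.3 and matplotlib 3.10.9 were used.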

Additional observations from a re-analysis of the deposited data

How the results depend on the processing

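No paired analysis was possible because each group holds 1 library. The settings with 20 reads, without MRPL30, with deciles and with exon-union length were chosen after seeing the data. The 6 of 49 MRPL at least 2-fold lower became 10 and 1 with pseudocounts of 0.1 and 5 RPKM. At 1.5-fold and 4-fold they became 18 and 0, and with a counting interval beyond 2-fold 1. Without overlapping genes, which left 25 MRPL, they became 3. The 3 MRPS became 0 with the 5 RPKM pseudocount, 9 and 0 at 1.5-fold and 4-fold, and 0 with the interval. The 1 higher MRPL became 0 at 4-fold, without overlapping genes and without MRPL30. The MRPL median of -0.37 became -0.48 and -0.21 with the pseudocounts and -0.54 with either centring on the median or the trimmed mean. The MRPS median of -0.12 became -0.29 with both of these, -0.51 with a filter of 5 RPKM and -0.38 without overlapping genes. Large minus small (-0.25) became 0.11 with that filter, -0.14 with the 5 RPKM pseudocount and -0.0048 without overlapping genes. The cause was not tested. Over all features, 976 higher became 1830 and 186 (pseudocounts), 327 (5 RPKM filter), 2569 and 151 (1.5-fold and 4-fold) and 632 (20 reads), and 675 lower became 1023, 295, 407, 1484 and 149 in that order, and 284 with the interval. Placing MRPS18A and MRPS30 in the large subunit and leaving out MRPS36 changed no count. Depth left 43 of 78 intervals holding a ratio of 1.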

Other observations

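The 2 pseudogenes that the naming rule leaves out both derive from MRPS31. MRPS31P4 measured 5.28 RPKM (IP, 17 reads) and 2.10 RPKM (Input, 20 reads), a ratio of 2.51 (1.24 to 5.05), and MRPS31P5 had 9 and 11 reads, a ratio of 2.42 (0.886 to 6.42). MRPS31 itself had 8 and 48 reads, a ratio of 0.493 (0.201 to 1.05), so the interval of MRPS31P4 lies above that of its parent. How reads were divided among them is not given in the sources used here.

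MRPL46 and MRPS11, proteins of different subunits, lie head to head on chromosome 15 with 33 bases between their genes. MRPL46 measured 1.01 RPKM (IP) and 1.44 RPKM (Input), and MRPS11 had 2.98 and 4.67 RPKM, with log2 ratios of -0.28 and -0.51. MRPL53 and MRPL54, on chromosomes 2 and 19, both rested on 12 IP reads and 78 Input reads and so share the ratio of 0.455 (0.225 to 0.840).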
